A study of Mus musculus with 8 samples.

Results

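The genes described here are 10 regulators of mitochondrial biogenesis in mouse muscle: the coactivators Ppargc1a and Ppargc1b, the nuclear receptors Esrra, Esrrg, Ppara and Ppard, the transcription factors Nrf1 and Gabpa, the mitochondrial DNA factor Tfam and the mitochondrial fusion protein Mfn2. They were taken by name. Each had 1 probe set annotated to exactly 1 gene, so all 10 were measured, out of 14860 genes on the arrays. RNA came from the tibialis anterior, a fast muscle of the shin, of male C57BL/6 mice aged 8 weeks. Left muscles were electroporated with 25 µg of empty pcDNA3 and right muscles with 25 µg of pCMV-ATF4-FLAG, a plasmid that drives tagged mouse ATF4 from a viral promoter, with RNA isolated on day 11 from mice that had not been fasted. The experiment was done 4 times, which gave 8 exon arrays, 4 per group, and the plasmid always lay in the right leg, so plasmid and leg cannot be told apart. Electroporation reaches only part of a muscle, and each array holds RNA of the whole muscle.

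PGC-1 coactivators bind no DNA themselves. They are recruited to promoters by nuclear receptors, chiefly the estrogen-related receptors and the PPARs, and by the nuclear respiratory factors NRF1 and GABP, and together these factors turn on nuclear genes of the respiratory chain, of fatty acid oxidation and of mitochondrial DNA upkeep. In skeletal muscle, PGC-1α is known for its induction by exercise and for the oxidative character of slow fibres. ATF4 is a stress factor of the bZIP family, and its overexpression in muscle was the question of the study. The comparison here asks whether the mRNAs of this regulatory circuit differed between ATF4 and empty vector.

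Levels are deposited log2 probe set signals, and every difference is ATF4 minus empty vector on that log2 scale within an experiment. None of the 10 genes passed the test between the groups. In a paired fit with limma over all 16755 probe sets, 0 of the 10 passed a Benjamini-Hochberg adjusted p of 0.05 and 0 passed an unadjusted p of 0.05, where 0.0179% and 6.00% of all probe sets did. The arrays of the groups overlapped for all 10 genes, and no gene had a difference of the same sign in all 4 experiments. Over all probe sets, 2.16% had groups that did not overlap and 14.9% had the same sign in all 4. The median difference of the 10 was -0.04, with 7 lower and 3 higher, and the median of all genes was 0.02, with 45.5% lower. The 95% intervals together ran from -0.48, for Mfn2, to 0.47, for Ppargc1b. A fall of more than 1.39-fold or a rise of more than 1.38-fold therefore lay outside the interval of each of the 10 genes.

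The labels of the arrays could be checked only in part. Atf4, at a probe set whose place on the transcript is unknown here, stood at 6.42, 6.24, 6.48 and 6.23 with empty vector in experiments 1 to 4 and at 6.66, 6.56, 6.72 and 6.18 with ATF4, a difference of 0.18 (SE 0.11, 95% interval -0.08 to 0.45, adjusted p = 0.846). It was higher in 3 of 4 experiments, and the groups overlapped. A probe set outside the part of Atf4 that the plasmid carries would check nothing. Muscle fibre markers such as Acta1, Ckm and Tnnt3 gave the tissue: 9 of 12 were measured, and their mean level ran from 10.18 to 10.31 in the empty vector arrays and from 10.08 to 10.33 in the ATF4 arrays. All 9 were lower in the fit, with differences of -0.13 to -0.01, where 45.5% of all genes were lower, and none passed. Lower in experiments 1 to 4 were 2, 7, 9 and 8 of the 9. Of 5 lists of other cell types, the macrophage markers had a higher mean in 4 of 4 experiments, by 0.41, 0.45, 0.06 and 0.05. In the fit 10 of 11 genes were higher and 1 lower, where 45.5% of all genes were lower. None passed the adjusted threshold. An unadjusted limma p of 0.05 was passed by 2, both higher, where 6.00% of all probe sets passed. In experiments 3 and 4, however, 5 and 6 of the 11 were lower, with medians of 0.04 and -0.02, and the highest single value of experiment 4 was that of Cd68, at 1.13. Their mean level ran from 6.00 to 6.95 in the empty vector arrays and from 6.04 to 7.01 in the ATF4 arrays. The 7 endothelial markers had a lower mean in 4 of 4 experiments, with differences of -0.04, -0.06, -0.17 and -0.01 and mean levels of 5.11 to 5.30 and 5.05 to 5.28. In experiments 2 and 4 only 3 of the 7 were lower, with medians of 0.004 and 0.04, and Tek stood at -0.55 and -0.39. Cd68 and Tek were singled out after their values were seen. The part of these cells in the results for the 10 genes was not tested. In whole muscle, fewer cells of a type and less RNA per cell cannot be told apart.

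Promoter windows of 4 of these genes are shown as examples. They hold letters of the sites through which ATF-family factors and the NRF1 and GABP factors bind. The sequences are RefSeq's on GRCm38.p6, 250 bases before the start of the transcript, 5′ to 3′ along the gene, with the matches in capitals. Of the 10 genes, 9 had 15 such windows, which also reach 50 bases past the start. No window was used for Ppargc1b. The motifs were searched on both strands.
Ppargc1a (chr5:51567726-51567975, minus strand): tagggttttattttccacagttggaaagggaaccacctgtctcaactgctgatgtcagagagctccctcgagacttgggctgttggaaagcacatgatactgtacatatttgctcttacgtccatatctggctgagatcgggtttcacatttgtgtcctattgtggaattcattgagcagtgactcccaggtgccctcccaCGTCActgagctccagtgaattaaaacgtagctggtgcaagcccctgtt
Esrra (chr19:6921809-6922058, minus strand): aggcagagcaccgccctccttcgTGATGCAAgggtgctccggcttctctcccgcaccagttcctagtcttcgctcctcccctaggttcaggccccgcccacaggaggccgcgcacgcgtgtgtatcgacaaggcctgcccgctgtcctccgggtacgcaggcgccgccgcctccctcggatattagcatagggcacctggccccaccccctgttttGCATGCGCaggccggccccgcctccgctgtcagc
Tfam (chr10:71238045-71238294, minus strand): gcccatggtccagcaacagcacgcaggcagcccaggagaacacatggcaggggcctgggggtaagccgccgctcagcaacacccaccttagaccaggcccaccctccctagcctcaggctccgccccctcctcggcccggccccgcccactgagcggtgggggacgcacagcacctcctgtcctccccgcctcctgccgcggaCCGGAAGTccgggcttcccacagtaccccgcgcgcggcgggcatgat
Ppara (chr15:85735526-85735775, plus strand): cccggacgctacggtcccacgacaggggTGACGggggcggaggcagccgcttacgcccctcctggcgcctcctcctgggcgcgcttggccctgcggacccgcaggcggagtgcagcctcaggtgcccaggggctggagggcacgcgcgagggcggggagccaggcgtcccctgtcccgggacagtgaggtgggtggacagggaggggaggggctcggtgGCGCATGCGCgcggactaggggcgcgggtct

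In the Ppargc1a window the capitals are the core of the cyclic AMP response element (CRE), TGACG, read on the other strand and starting at position -49 from the transcript start. This core is in 20.8% of all 32851 promoter windows and in 6 of the 15 windows of these genes. The 6 belong to 4 of the 9 genes: Ppargc1a, Ppara, Ppard and Mfn2, whose 3 windows overlap one another. In the Esrra window the first capitals, at position -227, match TGATGNAA, a form of the composite element that ATF4 binds with a C/EBP partner. That motif is in 3.97% of all windows, and Esrra held the only match among these genes. The second capitals in Esrra and the capitals nearest the start in Ppara match the NRF1 core GCATGCGC, found in 2.71% of all windows. In Ppara it matched on both strands, and these matches overlap. The first capitals in Ppara, at position -222, are again the CRE core. The Tfam window holds CCGGAAGT, the site of ETS factors such as GABP, at position -47, and 3.89% of all windows hold it. The complete CRE TGACGTCA (1.79% of all windows), the estrogen-related receptor element TNAAGGTCA (1.28%) and the E-box CACGTG (7.15%) had no match in the 15 windows, and every complete CRE also holds the CRE core. A missing match holds for these windows only. Sequence outside them, at any other start of Ppargc1a or of the other genes, was not searched. A match is a run of letters and was not measured as a bound site.

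Ppargc1a encodes PGC-1α, the coactivator that gives the pathway its name. Its level in experiments 1 to 4 was 7.19, 6.60, 6.72 and 7.36 with empty vector and 6.82, 6.56, 6.84 and 7.06 with ATF4. Experiment 4 was highest and experiment 2 lowest in both groups, and ATF4 was lower in 3 of 4 pairs. The differences of -0.37, -0.04, 0.13 and -0.30 gave a fitted value of -0.15 (SE 0.12, 95% interval -0.43 to 0.14, adjusted p = 0.868). The means of the 4 experiments spanned 0.63, more than any pair differed. Leaving out 1 experiment at a time gave -0.24 to -0.07, nearest to 0 without experiment 1 and farthest without experiment 3.

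Ppargc1b encodes PGC-1β, the close relative that shares many of PGC-1α's partners. It stood at 4.96, 4.75, 4.83 and 4.53 with empty vector and at 4.87, 4.97, 4.81 and 5.06 with ATF4. The empty vector array of experiment 4 was the lowest of the 8 and its ATF4 partner the highest. The pair differences were -0.10, 0.22, -0.01 and 0.52, with 2 higher and 2 lower, and the fit gave 0.16 (SE 0.14, 95% interval -0.16 to 0.47, adjusted p = 0.871). With 1 experiment left out the difference was 0.03 to 0.24, lowest without experiment 4 and highest without experiment 1. Pprc1, the third member of the coactivator family, singled out after its values were seen, differed by 0.01 (SE 0.11, adjusted p = 0.992).

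**Figure D1:**
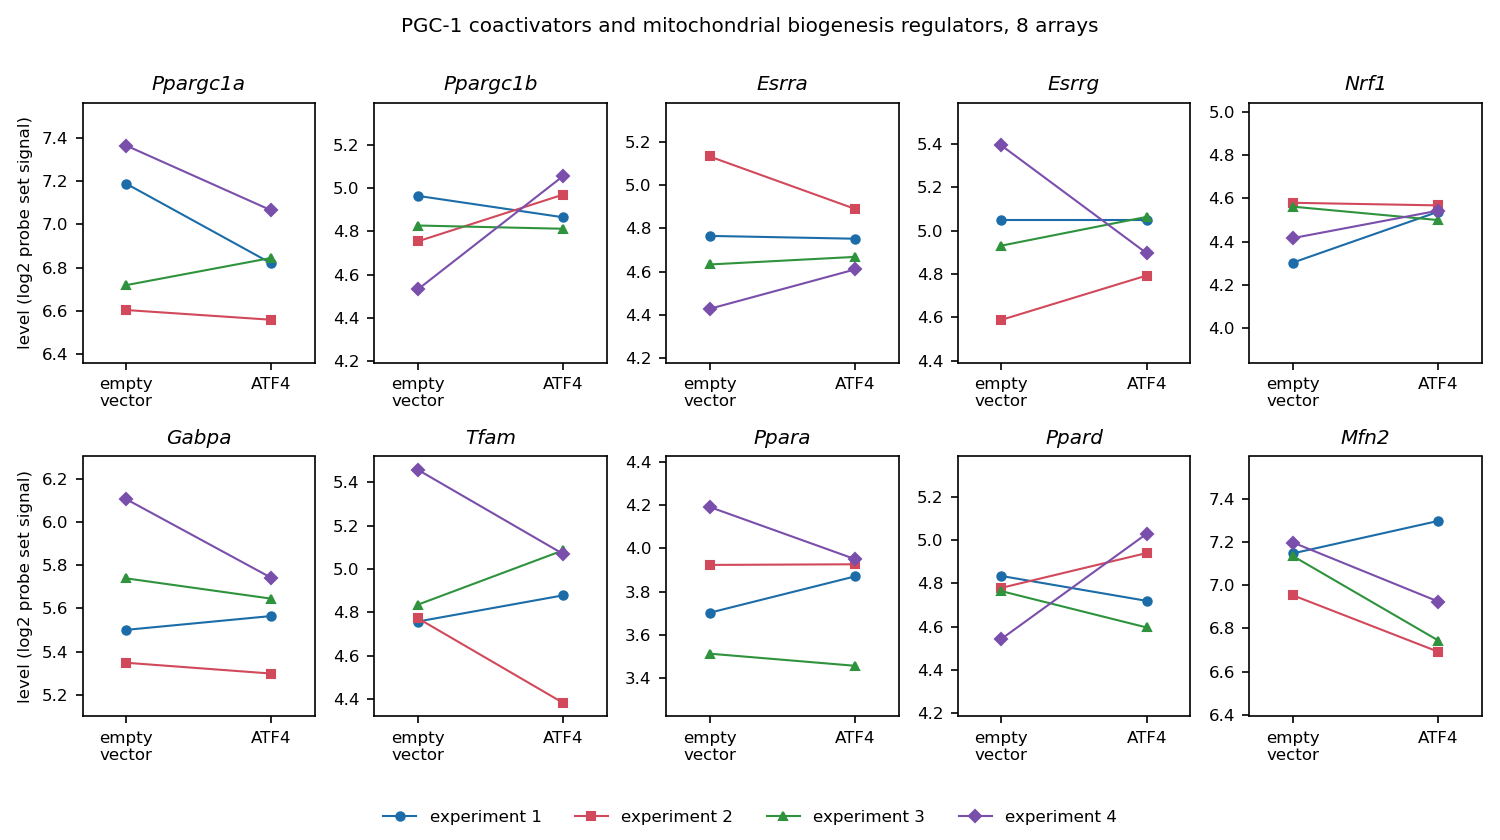
Level of each of the 10 genes (log2 probe set signal, each panel spanning 1.2 log2 units) in muscles with empty vector and with ATF4. Points are single arrays and lines join the arrays of an experiment. The lines of a gene run in both directions, and in each panel the ATF4 points fall within or across the range of the empty vector points.

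The estrogen-related receptors are orphan nuclear receptors that carry PGC-1 to respiratory genes. Esrra, encoding ERRα, had levels of 4.76, 5.13, 4.63 and 4.43 with empty vector and 4.75, 4.89, 4.67 and 4.61 with ATF4. The order of the experiments was the same in both groups, with experiment 2 highest and experiment 4 lowest. Its pair differences of -0.01, -0.24, 0.03 and 0.18 gave -0.01 (SE 0.12, 95% interval -0.28 to 0.26, adjusted p = 0.995), the value closest to 0 among the 10. It was 0.07 without experiment 2 and -0.07 without experiment 4. Esrrg, encoding ERRγ, a receptor abundant in oxidative muscle, had levels of 5.05, 4.59, 4.93 and 5.39 and, with ATF4, of 5.05, 4.79, 5.06 and 4.90. Its extremes lay in the empty vector group, lowest in experiment 2 and highest in experiment 4. The differences of 0.001, 0.20, 0.13 and -0.50 in the 4 pairs gave -0.04 (SE 0.14, 95% interval -0.37 to 0.29, adjusted p = 0.975). The single lower pair was experiment 4, without which Esrrg differed by 0.11, and without experiment 2 by -0.12. Esrrb, the remaining receptor of this family, singled out after its values were seen, differed by 0.12 (SE 0.15, adjusted p = 0.913).

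Nrf1 and Gabpa encode the factors that switch on nuclear genes of the respiratory chain. Nrf1, nuclear respiratory factor 1, stood at 4.30, 4.58, 4.56 and 4.42 with empty vector. With ATF4 it stood at 4.54, 4.57, 4.50 and 4.54, the tightest group of all, with an SD of 0.03. All 4 ATF4 arrays lay within the empty vector range, and the difference was 0.07 (SE 0.11, 95% interval -0.19 to 0.33, adjusted p = 0.93), from pair differences of 0.23, -0.01, -0.06 and 0.13. Leave-one-out values of Nrf1 were 0.02 to 0.12, lowest without experiment 1 and highest without experiment 3. Gabpa, the DNA-binding ETS subunit of GABP, stood at 5.50, 5.35, 5.74 and 6.11 and at 5.57, 5.30, 5.64 and 5.74 with ATF4. It was lowest in experiment 2 and highest in experiment 4 in both groups. Its pair differences were 0.07, -0.05, -0.09 and -0.36, lower in 3 of 4, and the fit gave -0.11 (SE 0.12, 95% interval -0.38 to 0.16, adjusted p = 0.892). The difference of Gabpa was -0.03 without experiment 4 and -0.17 without experiment 1.

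Tfam, which packages mitochondrial DNA and starts its transcription, is a target of NRF1 and GABP. The levels of Tfam were 4.76, 4.77, 4.83 and 5.46 with empty vector and 4.88, 4.38, 5.09 and 5.07 with ATF4. The empty vector array of experiment 4 stood well above the other 3, and the ATF4 array of experiment 2 was the lowest of the 8. Pairs went 0.12, -0.39, 0.25 and -0.39, with 2 lower and 2 higher. Tfam had the widest spread of pair differences of the 10 genes (SD 0.34) and a fitted difference of -0.10 (SE 0.15, 95% interval -0.44 to 0.24, adjusted p = 0.926). Without either experiment 2 or experiment 4 the difference was -0.006, and without experiments 1 and 3 in turn it was -0.18 and -0.22.

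The PPARs are nuclear receptors for fatty acids that turn on fat oxidation. Ppara, encoding PPARα, had a dim probe set, at the 26.2 percentile of all probe sets by mean signal. It stood at 3.70, 3.92, 3.51 and 4.19 with empty vector and 3.87, 3.93, 3.46 and 3.95 with ATF4. Experiment 3 was lowest and experiment 4 highest in both groups, and the differences of 0.17, 0.003, -0.06 and -0.24 gave -0.03 (SE 0.12, 95% interval -0.32 to 0.25, adjusted p = 0.978). Ppard, encoding PPARδ, the form that prevails in muscle, stood at 4.83, 4.78, 4.76 and 4.54 and, with ATF4, at 4.72, 4.94, 4.60 and 5.03. As for Ppargc1b, the empty vector array of experiment 4 was lowest of the 8 and its partner highest. The differences of -0.12, 0.16, -0.17 and 0.49 gave 0.09 (SE 0.14, 95% interval -0.23 to 0.41, adjusted p = 0.928). Without experiment 4 Ppara and Ppard changed sign, to 0.04 and -0.04, and the other leave-outs reached -0.10 for Ppara and 0.18 for Ppard. Pparg, the adipose form, singled out after its values were seen, differed by -0.04 (SE 0.12, adjusted p = 0.974).

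Mfn2, a GTPase of the outer mitochondrial membrane that joins mitochondria and a target of PGC-1α and ERRα, had the largest fitted difference of the 10. Its levels were 7.15, 6.95, 7.13 and 7.20 with empty vector and 7.30, 6.69, 6.74 and 6.92 with ATF4. The empty vector arrays were close together (SD 0.11), 3 of the 4 ATF4 arrays lay below them all, and the fourth, of experiment 1, was the highest of the 8. Pair differences of 0.15, -0.26, -0.39 and -0.27 gave -0.19 (SE 0.12, 95% interval -0.48 to 0.09, adjusted p = 0.848). Without experiment 1 the difference was -0.31 with an adjusted p of 0.742, and without experiment 3 it was -0.13.

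**Figure D2:**
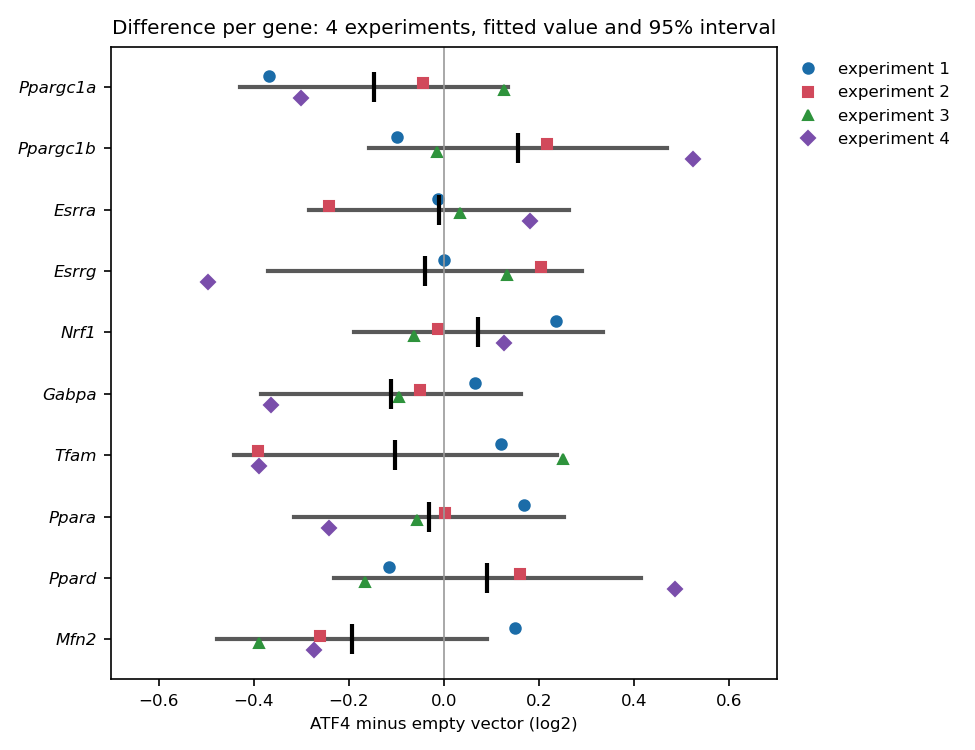
ATF4 minus empty vector (log2) for each gene, with a coloured point per experiment, a black tick for the limma estimate and a grey bar for its 95% interval. Every bar includes 0, from -0.48 at the lower end for Mfn2 to 0.47 at the upper end for Ppargc1b, and the outermost points of Ppargc1b, Esrrg and Ppard are those of experiment 4.

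The range of the experiment means was wider than the fitted difference between groups for 9 of the 10 genes, Ppargc1b being the exception (0.12 against a difference of 0.16). Fitted differences ran from -0.19 to 0.16. For the 10 genes, the range of the 4 experiment means had a median of 0.47, against a median SD of pair differences of 0.23 and a median SE of 0.12. Experiment 4 held the widest pair difference for 5 of the 10 genes. The median absolute difference of the 10 was 0.12, 0.18, 0.11 and 0.33 in experiments 1 to 4. Over all genes it was 0.18, 0.19, 0.13 and 0.30, so the wide pair of experiment 4 was not particular to the 10. The empty vector array of experiment 4 was the highest of the 8 for Ppargc1a, Esrrg, Gabpa, Tfam and Ppara and the lowest for Ppargc1b, Esrra and Ppard. In that experiment 6 of the 10 genes were lower with ATF4, with Esrrg the lowest at -0.50, and 4 were higher, with Ppargc1b the highest at 0.52. The ATF4 array of experiment 4 also had a narrower spread over all probe sets (SD 1.14) than its partner (SD 1.31), and the part of this in the pair's differences was not tested. After quantile normalization, which gives all arrays one distribution, the experiment 4 differences of Ppargc1a, Gabpa and Mfn2 were 0.07, -0.06 and 0.10, and their fitted differences over all experiments were -0.06, -0.04 and -0.10. With the same normalization, the experiment 4 differences of Ppargc1b, Ppard, Esrrg, Tfam and Ppara were 0.48, 0.44, -0.39, -0.25 and -0.42.

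**Figure D3:**
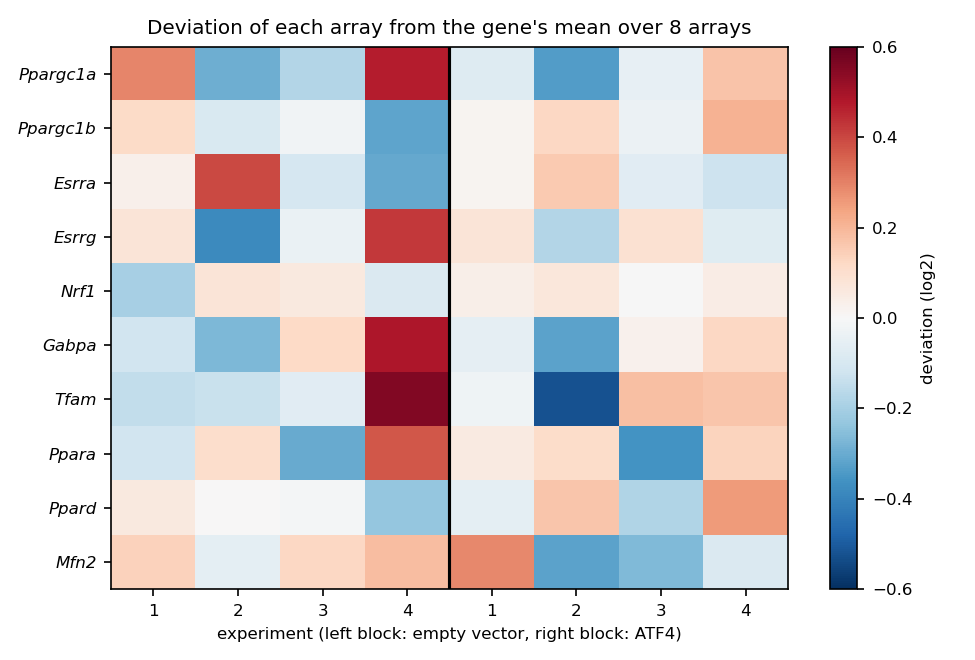
Deviation of each array (columns, by group and experiment) from the gene's own mean over the 8 arrays (rows), in log2 units from -0.6 in blue to 0.6 in red. The empty vector array of experiment 4 is the deepest red for Ppargc1a, Esrrg, Gabpa, Tfam and Ppara and among the deepest blue for Ppargc1b, Esrra and Ppard.

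The genes whose levels followed Ppargc1a most closely over the 8 arrays were picked by Pearson's r from 7429 other genes at or above the median level. They were Idh3g, a subunit of mitochondrial isocitrate dehydrogenase (r = 0.97, Spearman's rho = 0.95), Slc25a46, a protein of the outer mitochondrial membrane (0.97 and 0.98), Oat, ornithine aminotransferase (0.97 and 0.91), Mmachc, which processes vitamin B12 (0.96 and 0.98), and Msi2, an RNA-binding protein (0.95 and 0.98). The arrays come in pairs from 4 experiments, so these values describe 8 points that are not independent. Without the empty vector arrays of experiments 1 and 4, those farthest from the median of Ppargc1a, r was between 0.89 and 0.98 for these 5. They were picked for a high r on arrays that include the 6 left, so this is no separate check. Among the other 9 regulators, r with Ppargc1a ran from 0.80 for Esrrg, 0.75 for Gabpa and 0.74 for Tfam to -0.72 for Esrra and -0.78 for Nrf1. On the 6 arrays left, r was 0.56 for Esrrg, 0.80 for Gabpa, 0.83 for Tfam, -0.73 for Esrra and -0.59 for Nrf1, and that of Ppargc1b went from -0.27 to 0.49. None of the 5 closest genes passed the test between groups, with differences from -0.20 to -0.04.

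The kinases and cofactors that act on PGC-1 were listed as 32 genes, of which 28 were measured. None passed the adjusted threshold in either direction. An unadjusted p of 0.05 was passed by 2 (Prkab1 higher, Lpin1 lower), where 6.00% of all probe sets passed. There were 16 lower and 12 higher, where 45.5% of all genes were lower, and the median of the list was -0.07. With 1 experiment left out it was -0.09 to -0.03, nearest to 0 without experiment 4. The list holds AMP-activated protein kinase (AMPK), a sensor of energy shortage that phosphorylates PGC-1α. Prkab1, the β1 regulatory subunit, stood at 4.96, 4.93, 4.98 and 4.83 with empty vector and 5.29, 5.13, 5.38 and 5.22 with ATF4. Its groups did not overlap and all 4 pairs were higher, by 0.34, 0.20, 0.40 and 0.40, a fitted difference of 0.33 (SE 0.11, adjusted p = 0.754). Stk11, encoding LKB1, the kinase that activates AMPK, stood at 6.28, 6.27, 6.32 and 6.32 and, with ATF4, at 6.09, 6.07, 6.07 and 6.15. Its groups did not overlap either, with all pairs lower and very even differences of -0.19, -0.19, -0.24 and -0.17, giving -0.20 (SE 0.10, adjusted p = 0.846). Prkaa2, the α2 catalytic subunit that prevails in muscle, stood at 7.08, 7.04, 6.86 and 7.28 and 6.96, 6.81, 6.71 and 6.97 with ATF4, lower in all pairs but with groups that overlapped. Its fitted difference was -0.20 (SE 0.10, adjusted p = 0.846). Prkab2, the β2 subunit, differed by -0.01, -0.22, -0.33 and -0.22 in the 4 experiments and by -0.19 (SE 0.11, adjusted p = 0.846) in the fit, with overlapping groups. With quantile normalization the fitted differences of Stk11, Prkaa2 and Prkab2 were nearer to 0, at -0.11, -0.11 and -0.10, and that of Prkab1 was 0.34.

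**Figure D4:**
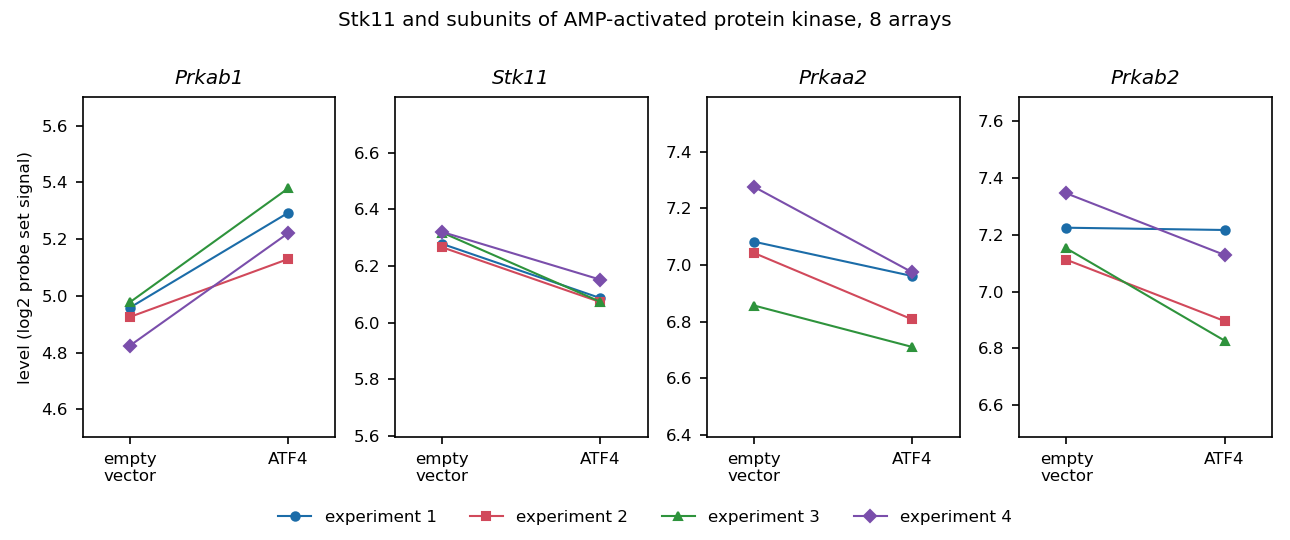
Level of Prkab1, Stk11, Prkaa2 and Prkab2 (log2 probe set signal, each panel spanning 1.2 log2 units) on the 8 arrays, with lines joining the arrays of an experiment. All 4 lines slope up for Prkab1 and down for the other genes, barely so for Prkab2 in experiment 1, and none of these differences passed the adjusted threshold.

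Of the 28 genes, 4 had groups that did not overlap, where 2.16% of all probe sets did not: Prkab1, Stk11, Kat2a and Hdac5. Kat2a, the acetyltransferase GCN5 that represses PGC-1α, differed by -0.14 (SE 0.11, adjusted p = 0.865). Hdac5, a class II histone deacetylase that holds back MEF2, differed by 0.10 (SE 0.11, adjusted p = 0.892). Stk11, Kat2a, Hdac5 and Prkab2 were singled out after their values were seen. After quantile normalization only Prkab1 of these 4 still had groups that did not overlap, and with median centring Prkab1 and Stk11 did. Lpin1, lipin 1, a phosphatidate phosphatase that also works with PGC-1α in liver, stood at 6.42, 6.21, 6.40 and 6.69 with empty vector and 6.24, 6.06, 6.00 and 5.98 with ATF4. It was lower in 4 of 4 pairs with overlapping groups, and differed by -0.36 (SE 0.13, adjusted p = 0.787) in the fit, and by -0.43 to -0.24 with 1 experiment left out. Of the 28 genes, 8 had the same sign in all 4 experiments, where 14.9% of all probe sets did. A small p in a paired fit favours an even sign.

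Tfam's partners in mitochondrial DNA transcription and replication lay on both sides of 0. Of 15 listed genes 13 were measured, 7 lower (53.8%, where 45.5% of all genes were lower) and 6 higher. The median was -0.01, and 0 passed either the adjusted or the unadjusted threshold in limma. The smallest p-values belonged to Tefm, the mitochondrial transcription elongation factor, at -0.23 (SE 0.17, adjusted p = 0.853), Lonp1, the matrix protease that degrades TFAM, at -0.12 (SE 0.11, adjusted p = 0.88), and Mterf4, at -0.11 (SE 0.12, adjusted p = 0.892). Tefm differed by 0.19, -0.30, 0.02 and -0.83 in the 4 experiments. With 1 experiment left out, Tefm ran from -0.37 to -0.03, Lonp1 from -0.17 to -0.07, Mterf4 from -0.17 to -0.04 and the list median from -0.05 to 0.02. Tefm and the list median were highest without experiment 4, Lonp1 without experiment 1 and Mterf4 without experiment 2.

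Genes of mitochondrial dynamics and quality control, which surround Mfn2, were lower in 9 of 13 measured members (14 listed), where 45.5% of all genes were lower. Their median was -0.08, with none past the adjusted threshold. Bnip3l and Pink1 passed an unadjusted p of 0.05, where 6.00% of all probe sets did. Bnip3l, a receptor that marks mitochondria for autophagy, differed by -0.58, -0.63, -0.02 and -0.67 in experiments 1 to 4, lower in all, and by -0.47 (SE 0.14, adjusted p = 0.754) in the fit. Pink1, a kinase that flags damaged mitochondria, was lower in all pairs at -0.31 (SE 0.13, adjusted p = 0.822), and -0.39 to -0.20 with 1 experiment left out. Mfn1, the other mitofusin, stood at 7.05, 6.56, 6.80 and 7.36 with empty vector and 6.97, 6.51, 6.44 and 6.51 with ATF4, lower in all pairs. Its fitted difference was -0.34 (SE 0.15, adjusted p = 0.841). Across the leave-outs Mfn1 ran from -0.43 to -0.17, nearest to 0 without experiment 4. The same sign in all 4 experiments was found for 4 of the 13 genes, where 14.9% of all probe sets had it. A small p in a paired fit favours an even sign. Averaged over these 13 genes, experiments 1 to 4 differed by 0.01, -0.09, 0.02 and -0.35. The median of this list was -0.21 without experiment 1, 0.01 without experiment 4 and 0.001 with quantile normalization, so that the last 2 turned its sign.

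Oxidative genes that the ERR and NRF factors are known to drive were measured for 21 of 26. Of these 17 were lower and 4 higher, with a median of -0.10, where 45.5% of all genes were lower. None passed the adjusted threshold. Of all probe sets 6.00% passed an unadjusted p of 0.05, and of the list 1 gene did. This was Sod2, the mitochondrial superoxide dismutase, with pair differences of -0.30, -0.74, 0.03 and -0.67 and a fitted value of -0.42 (SE 0.15, adjusted p = 0.786). Ndufs1, a complex I subunit, and Idh3a, a subunit of isocitrate dehydrogenase, differed by -0.17 (SE 0.12, adjusted p = 0.853) and -0.20 (SE 0.14, adjusted p = 0.853). Over the leave-outs Sod2 ran from -0.57 to -0.32, Ndufs1 from -0.24 to -0.08 and Idh3a from -0.31 to -0.07, the latter pair nearest to 0 without experiment 4 and farthest without experiment 1. Averaged over the list, the differences in experiments 1 to 4 were 0.06, -0.04, -0.09 and -0.33, and the median was -0.03 without experiment 4 and -0.02 with quantile normalization.

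Targets of the PPARs and genes of fatty acid oxidation were measured for 12 of 21. Of these 9 were lower, where 45.5% of all genes were, and the median was -0.18. None passed the adjusted threshold. An unadjusted p of 0.05 was passed by 3, all lower, where 6.00% of all probe sets passed. Lpl, the lipase that frees fatty acids from blood lipoproteins, had pair differences of -0.95, -0.13, -0.51 and -0.14 and a fitted value of -0.43 (SE 0.16, adjusted p = 0.787). Cd36, the fatty acid carrier of the cell surface, differed by -0.17, -0.11, -0.40 and -0.87 in the 4 experiments, and by -0.39 (SE 0.14, adjusted p = 0.789) in the fit. Acadm, the medium-chain acyl-CoA dehydrogenase, differed by -0.21, -0.02, -0.43 and -0.75, or -0.35 (SE 0.14, adjusted p = 0.796) in the fit. All 3 were lower in 4 of 4 pairs with overlapping groups. Of the 12 genes, 5 had the same sign in all 4 experiments, where 14.9% of all probe sets did. These 3 were named for a small p in the paired fit, which favours an even sign, so the sign is no separate support. Lpl ran from -0.53 to -0.26 with 1 experiment left out, nearest to 0 without experiment 1. Cd36 ran from -0.48 to -0.22 and Acadm from -0.46 to -0.22, both nearest to 0 without experiment 4. The list median was -0.12 without experiment 4 and -0.09 with quantile normalization. Adipocytes also express Lpl, Cd36 and Pparg. Of 8 measured adipocyte markers 4 were lower and 4 higher, with fitted differences from -0.47, that of Adipoq, to 0.32. Their mean differed by -0.12, 0.08, -0.15 and 0.06 in experiments 1 to 4. Their mean level ran from 4.39 to 4.56 in the empty vector arrays and from 4.30 to 4.54 in the ATF4 arrays. Adipoq, the adipocyte hormone adiponectin, was singled out after its values were seen. It differed by -0.28, -0.13, -0.41 and -1.04 in the 4 experiments. Its difference was -0.47 (SE 0.16, adjusted p = 0.779) in the fit and -0.27 without experiment 4. In experiment 4 only 2 of the 8 markers were lower, Adipoq among them, and the median of the 8 was 0.135. The part of adipocytes in these values was not tested.

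**Figure D5:**
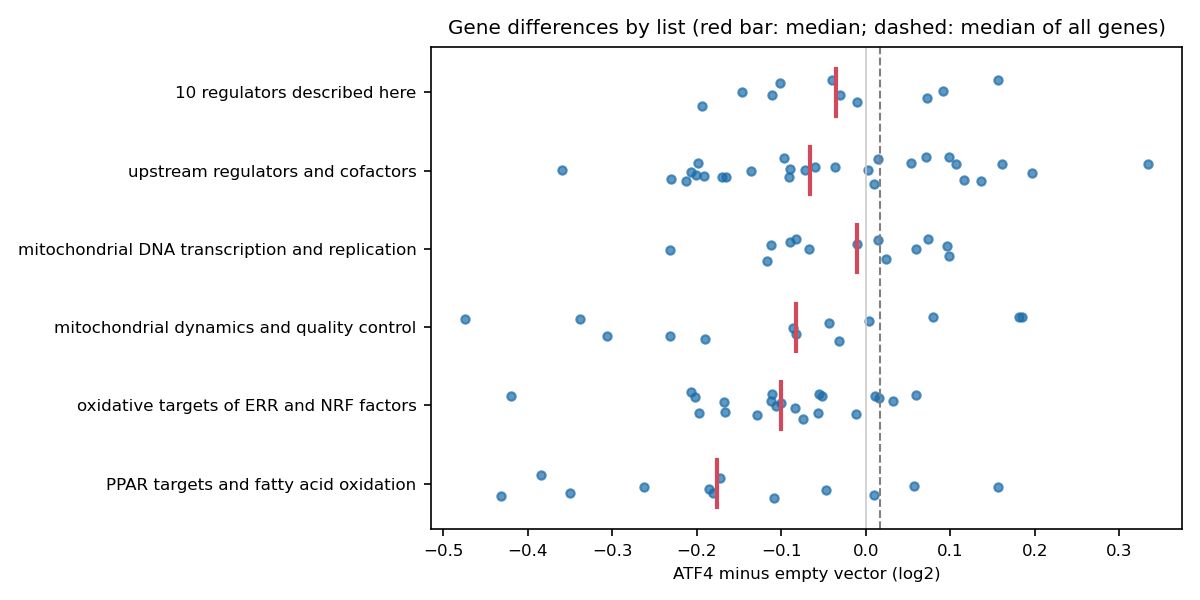
ATF4 minus empty vector (log2) of each measured gene, by list, with the list median as a red bar and the median of all genes (0.02) as a dashed line. The 10 regulators lie between -0.19 and 0.16, and the lowest list median is that of PPAR targets and fatty acid oxidation (-0.18).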

How the data were processed

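Per the labels' protocols, RNA of 8 tibialis anterior samples was amplified and given a biotin label for mouse exon arrays. The deposited table holds log2 signals that the authors made with RMA, per the submitters' processing notes, which give no version and name the human build hg18 with no stated use. That the scale is log2 follows from the range of the values. Array medians were 4.40, 4.44, 4.37 and 4.29 with empty vector and 4.39, 4.44, 4.38 and 4.44 with ATF4, in experiments 1 to 4. Detection calls were not used here. The table holds 16755 probe sets, 14996 with 1 gene, 1019 with several and 740 with none in the platform annotation. A gene with several probe sets was represented by the one of highest mean.

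The test was limma 3.58.1 (R 4.3.3, eBayes with trend, two-sided, Benjamini-Hochberg over all probe sets), with the experiment as a fixed block. The series design gives the pairing, left against right muscle. Paired arrays' deviations from the group means correlated with r = 0.07, 0.31, 0.55 and 0.05. With this block, p-values rest on how the paired difference varied from experiment to experiment. The limma fit moderated that variance with the other probe sets (3 residual degrees of freedom, and a median of 4.96 prior ones). The labels leave unsaid how many mice made up an experiment, so whether this is a spread between single mice is unknown. The precision is limited by the number of arrays. Named are all 10 genes, Atf4, the 3 members of smallest p per pathway list, the 5 genes closest to Ppargc1a and genes said in the text to be singled out after their values were seen. The genes and lists were chosen with earlier results of these data known, and lists got no set test. Alternatives changed the block, variance prior, scaling, dim probe set filter, array weights (statmod 1.5.0), probe set choice and the experiments kept.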

Additional observations from a re-analysis of the deposited data

Results flagged for a closer look

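An array stood far from the other 3 of its group in 4 of 68 groups of 4 arrays tested, and chance gives about 1 in 20. Tfam stood at 5.46 with empty vector in experiment 4, against 4.76 to 4.83 in the others. Ppara stood at 3.46 with ATF4 in experiment 3, against 3.87 to 3.95, with an empty vector partner that was also the lowest of its group, at 3.51. Mfn1 stood at 6.97 with ATF4 in experiment 1, against 6.44 to 6.51 in the others. The mean of the PPAR target and fatty acid oxidation list stood at 6.49 with ATF4 in experiment 2, against 6.599 to 6.62, and that experiment's empty vector mean, 6.48, was also the lowest of its group.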

How the results depend on the processing

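None of the 139 values of the 10 genes recomputed under the 14 alternatives passed the adjusted threshold (smallest adjusted p 0.549, for Mfn2 with array weights). With array weights 1 gene, Mfn2, passed an unadjusted p of 0.05, against 0 in the paired fit, where 6.00% of all probe sets passed. The share of all probe sets that passed with array weights was not counted, so this is not read as particular to Mfn2. The number of genes with the same sign in every experiment kept was 0 to 2 when 1 experiment was left out. The share of all probe sets was not counted for these leave-outs, and the 14.9% given above is for all 4 experiments. Signs turned in 7 values: Esrra was 0.068 without experiment 2, Esrrg 0.067 with array weights and 0.113 without experiment 4, Tfam 0.051 with array weights, Ppara 0.039 without experiment 4, and Ppard -0.039 with array weights and -0.041 without experiment 4. With 1 experiment left out, Esrra ran from -0.074 to 0.068, Esrrg from -0.121 to 0.113, Ppara from -0.098 to 0.039, Ppard from -0.041 to 0.177, Pprc1 from -0.004 to 0.046 and Pparg from -0.109 to 0.020. The median of the 10 stayed between -0.07 and -0.02. Of 432 values of 31 other named genes, 0 passed and 9 turned sign, all in genes with differences under 0.1: Pprc1 was -0.024 with median centring, -0.016 with quantile normalization, -0.002 without experiment 1 and -0.004 without experiment 4, Pparg 0.020 without experiment 4, Idh3g 0.030 with quantile normalization and 0 to 3 decimals with array weights, Slc25a46 0.014 with array weights and Msi2 0.014 with quantile normalization. Without the dimmest 50% of probe sets the median of the mitochondrial DNA list was -0.082, over 7 genes, and Ppara was not tested. Over the whole table, a total of 3 probe sets passed in the paired fit and also without the replicate block, 13 with a random replicate block, 0 without the intensity trend, 0 with median centring, 18 with array weights, 7 when the dimmest 25% were left out, 12 when the dimmest 50% were, and 0 to 2 without 1 experiment. The cause was not tested for any of these. The fit without the replicate block changed no call among the 10 genes. Without detection calls, the share of background in dim probe sets such as that of Ppara is unknown.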

Other observations

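The regulators of mitochondrial biogenesis had a smaller median within-group SD with ATF4 over all 4 experiments, but hardly so without experiment 4. The SD over the 4 arrays was smaller with ATF4 than with empty vector for 8 of the 10 genes, with median SDs of 0.19 and 0.29. Over all genes, 58.2% had the smaller SD with ATF4. Without experiment 4 the SD was smaller with ATF4 for 6 of the 10 genes, with median SDs of 0.166 with ATF4 and 0.175 with empty vector. No test was made of this difference.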
